A study of Mus musculus with 6 samples.

Results

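The opioid receptors are the 4 G protein-coupled receptors encoded by Oprm1 (mu), Oprd1 (delta), Oprk1 (kappa) and Oprl1 (nociceptin/orphanin FQ receptor). They were chosen by name, and each of the 4 was a row of the deposited table of 24841 genes. The table covers single-nucleus RNA sequencing of dissected, flash-frozen mouse striatum from 3 wild type libraries and 3 Celsr3 heterozygous libraries, labelled as biological replicates. Celsr3 encodes a seven-pass cadherin. The labels give the genotype as heterozygous and name no construct, strain, age, sex or treatment for either group, so what limits the heterozygous mice as a model is not given in the sources used here. The receptors were described by cell class and by genotype, with most weight on the D1 and D2 medium spiny neurons (MSNs), the projection neurons of the direct and indirect striatal pathways.

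Mu, delta and kappa receptors bind the enkephalins, endorphins and dynorphins, peptides cut from the precursors Penk, Pomc and Pdyn, while the nociceptin receptor binds the product of Pnoc. All 4 couple to inhibitory G proteins, which lower cyclic AMP, open inwardly rectifying potassium channels and close presynaptic calcium channels. In the striatum, D2 MSNs are the main enkephalin source and D1 MSNs the main dynorphin source, cholinergic interneurons carry delta receptors, and mu receptors mark the striosomes, patches of MSNs set within the surrounding matrix.

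In the GRCm38 mouse genome with the GENCODE annotation, Oprm1 spans chr10:6758506-7038198 on the plus strand, 279.7 kb with 31 annotated transcripts of 2 to 8 exons. Oprd1 lies at chr4:132110726-132144486 on the minus strand with 1 transcript of 3 exons, Oprk1 at chr1:5588466-5606131 on the plus strand with 5 transcripts, and Oprl1 at chr2:181715016-181720985 on the plus strand with 11 transcripts. Oprd1, Oprk1 and Oprl1 overlap no other annotated gene. Oprm1 overlaps Gm10945 and Ipcef1, both on the opposite strand. Ipcef1 (chr10:6885796-7052478, minus strand) shares 152.4 kb with Oprm1, or 54.5% of the span of Oprm1. Strand use in counting is not given in the sources used here, so reads of Oprm1 and Ipcef1 from the shared stretch may not have been told apart, and values of Ipcef1 are given beside those of Oprm1 for the main classes, clusters and comparisons.

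The libraries held 7735 to 8875 nuclei each, and 48062 of 48834 nuclei were kept after likely doublets were left out. Values in the table are whole numbers that behave as depth-corrected molecule counts, so levels are given as the mean value per nucleus of a library, and a nucleus with a value of 1 or more is called detected. The median number of genes per nucleus ran from 2456 to 3011 between libraries and was lowest in wild type replicate 1. Of 48559 distinct barcodes, 274 occurred in more than 1 library, and any pair of libraries shared 11 to 29. The class make-up differed between libraries: 207 to 1544 glutamatergic neuron-like nuclei, 1094 to 1810 D1 MSN-like and 942 to 1639 D2 MSN-like nuclei were kept per library. The classes carried their defining markers, with a mean over all nuclei of the class of 1.03 for Drd1 in D1 MSN-like nuclei, 4.03 for Drd2 in D2 MSN-like nuclei and 4.76 for Chat in cholinergic interneuron-like nuclei.

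Oprm1 was highest in neurons and was also found in microglia-like nuclei. Its mean value per nucleus was 2.16 ± 0.580 (SD, n = 6 libraries, as in all class levels below) in glutamatergic neuron-like nuclei, 1.55 ± 0.548 in eccentric MSN-like nuclei and 1.06 ± 0.327 in cholinergic interneuron-like nuclei. Glutamatergic neurons are cells of the cortex, amygdala and thalamus, not of the striatum itself, and their number differed widely between libraries. Microglia-like nuclei followed at 0.543 ± 0.109, GABAergic interneuron-like nuclei at 0.463 ± 0.0764, D2 MSN-like nuclei at 0.374 ± 0.0786 and D1 MSN-like nuclei at 0.332 ± 0.0589. From glutamatergic neurons down to D1 MSNs, the ranges over libraries of neighbouring classes overlapped, except between cholinergic interneuron-like and microglia-like nuclei. The step below D1 MSNs was clean: the lowest D1 library stood at 0.253 and the highest library of the next class, oligodendrocyte precursors, at 0.219. In oligodendrocyte-like nuclei the level was 0.0402 ± 0.00730, with 2.74% of nuclei detected at a median of 1877 genes per nucleus, against 21.03% of D1 MSN-like nuclei at a median of 3390.

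**Figure D1:**
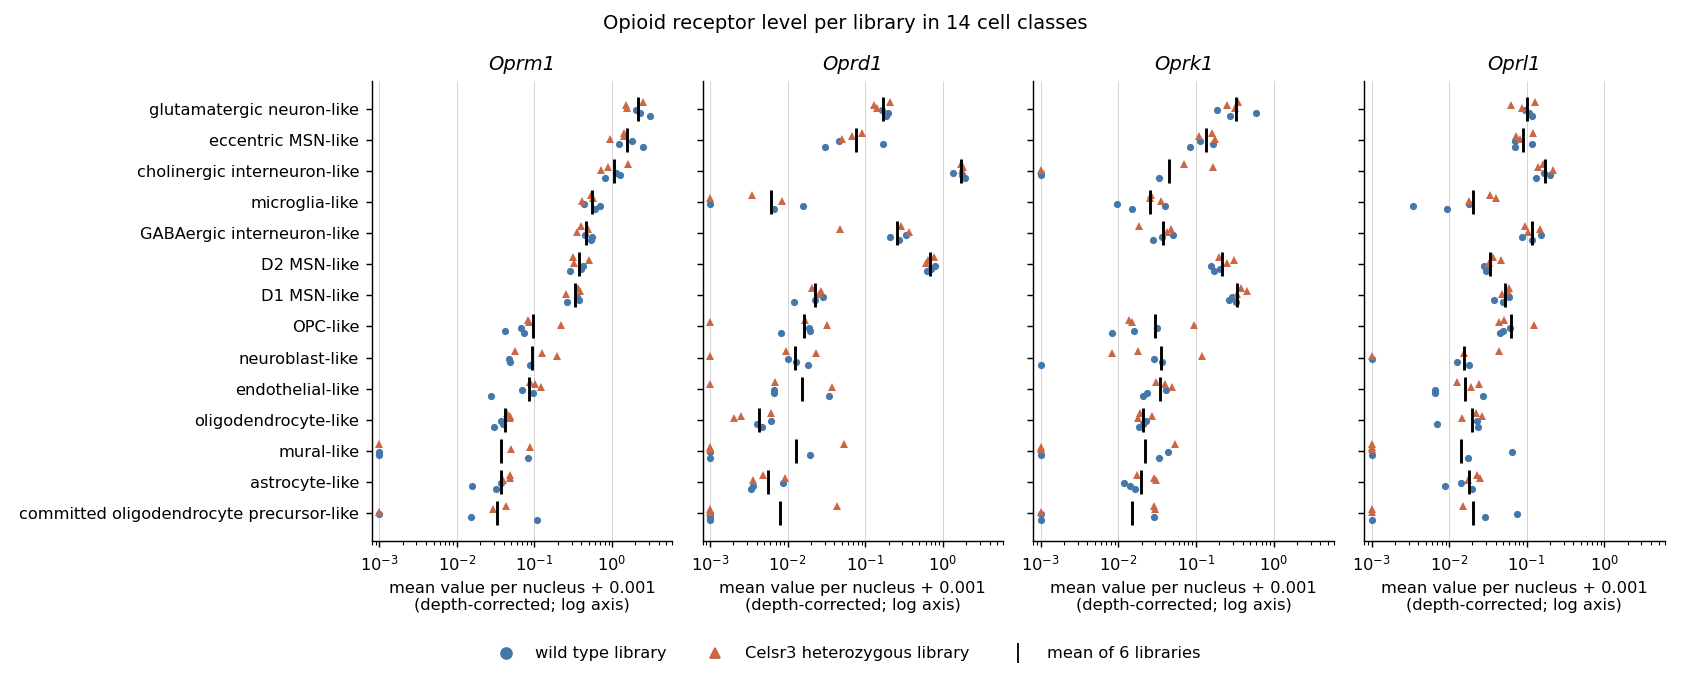
Mean depth-corrected value per nucleus plus 0.001 (log axis) of the 4 opioid receptors in 14 cell classes, 1 point per library and a bar at the mean of 6 libraries. Oprm1 is highest in glutamatergic neuron-like nuclei (2.16), Oprd1 in cholinergic interneuron-like nuclei (1.72), Oprk1 in D1 MSN-like nuclei (0.342) and Oprl1 in cholinergic interneuron-like nuclei (0.169).

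The glutamatergic neuron-like nuclei were not uniform in Oprm1. A cluster of 1143 nuclei with leading genes such as Olfr112, Trbc1 and Chrna5 held 4.21 ± 0.757 Oprm1 and 2.12 ± 0.240 Ipcef1, and Oprm1 was detected in 93.8% of its nuclei. The other glutamatergic clusters of over 200 nuclei averaged 1.50, 1.33 and 0.896. The high cluster made up 19.7% to 50.3% of the glutamatergic nuclei of a library. Over all nuclei, glutamatergic neuron-like nuclei held 35.8% of the summed Oprm1 value on average, but 8.52% to 60.5% in single libraries. In the GABAergic interneuron-like nuclei, a cluster with Nxph2, Nos1 and Chodl among its leading genes held 0.634 ± 0.162 Oprm1 and 1 with Pthlh, Kit and Nkx2-1 held 0.243 ± 0.0957. The first was mixed: with the receptors allowed in clustering, a cluster of 255 nuclei led by Nos1, Chodl and Nxph2 stood apart from 1 of 687 nuclei led by Vip.

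In microglia-like nuclei, Oprm1 stood at 0.609, 0.699 and 0.434 in the wild type libraries and at 0.408, 0.573 and 0.536 in the heterozygous libraries. Each of these 6 values lay above every oligodendrocyte (at most 0.0478) and astrocyte (at most 0.0470) library. Detected microglia-like nuclei made up 20.7% ± 4.02 of the class. The summed value of 8 neuronal genes (a list chosen after values were seen) was 20.6 ± 2.27 in the 502 detected and 21.3 ± 2.65 in the 1933 undetected microglia-like nuclei. That of 11 microglia markers was 48.6 ± 6.66 and 48.1 ± 6.97. These SDs are between libraries, and the differences within libraries were not tested. The same neuronal sum was 12.6 ± 2.07 in oligodendrocyte-like, 22.1 ± 2.92 in endothelial-like and 55.7 ± 3.01 in D1 MSN-like nuclei. Oprd1 was at 0.00504 ± 0.00559 in microglia-like nuclei.

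Ipcef1, the overlapping gene on the other strand, was at 0.443 ± 0.102 in microglia-like nuclei, close to Oprm1 in the same nuclei, whereas in D1 MSN-like nuclei it was at 0.0906 ± 0.0201. Across the 14 classes the 2 genes followed each other, with Pearson's r = 0.946 as a description over class means. Both genes were detected together in 7.23% of microglia-like nuclei, where independent detection within each library would give 4.24%, and this excess was seen in 6 of 6 libraries. Co-detection was also above independence in 6 of 6 libraries in D1 MSN-like nuclei (3.88% against 1.54%) and in D2 MSN-like nuclei (4.57% against 1.99%). How much of the Oprm1 value in any class comes from Ipcef1 transcripts was not tested, since the table holds no strand.

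**Figure D2:**
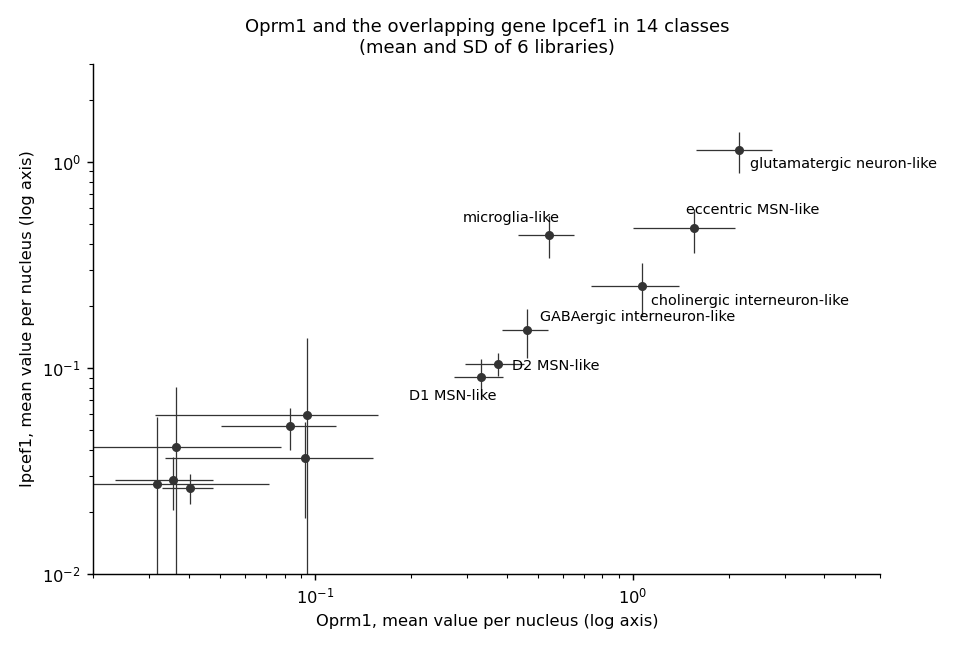
Mean value per nucleus of Ipcef1 against Oprm1 in 14 cell classes (both axes log), with the SD over 6 libraries as error bars. Microglia-like nuclei lie above D1 and D2 MSN-like nuclei and just below eccentric MSN-like nuclei (0.478 Ipcef1), with 0.443 Ipcef1 at 0.543 Oprm1, against 0.0906 at 0.332 in D1 MSN-like nuclei.

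Oprd1 had 2 leading classes, whose libraries overlapped neither each other nor any other class. Cholinergic interneuron-like nuclei held 1.72 ± 0.201, between 1.33 and 1.90 in every library, and 78.3% ± 7.41 of them were detected. D2 MSN-like nuclei held 0.686 ± 0.0770 with 48.5% detected, and their lowest library (0.607) lay above the highest GABAergic interneuron library (0.370). Within the GABAergic interneuron-like nuclei (0.252 ± 0.115), the mixed cluster with Nxph2 and Nos1 among its leading genes held 0.406 ± 0.160 and the cluster with Pthlh 0.0188 ± 0.0150. In that class, heterozygous replicate 2 stood at 0.0465 and the other 5 libraries at 0.207 to 0.370. Glutamatergic neuron-like nuclei followed at 0.170 ± 0.0314. D1 MSN-like nuclei were at 0.0217 ± 0.00611, and every glial and vascular class was at 0.0151 or below. Of the summed Oprd1 value of a library, D2 MSN-like nuclei held 68.2% ± 7.63.

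Oprk1 was highest on average in D1 MSN-like and glutamatergic neuron-like nuclei. D1 MSN-like nuclei held 0.342 ± 0.0682 (26.7% detected), glutamatergic neuron-like nuclei 0.328 ± 0.142, D2 MSN-like nuclei 0.213 ± 0.0547 and eccentric MSN-like nuclei 0.134 ± 0.0386; neighbours in this order overlapped between libraries. All other classes were at 0.0439 or below. Within the glutamatergic class, Oprk1 was highest in a cluster of 268 nuclei with Car3, Nr4a2 and Smoc2 among its leading genes, where it stood at 2.92 ± 0.471 and 90.5% were detected. That cluster ranged from 2.31 to 3.57 over libraries, while the Oprm1-high glutamatergic cluster held 0.0221 ± 0.0158 Oprk1. D1 MSN-like nuclei held 41.2% ± 3.50 of the summed Oprk1 value and D2 MSN-like nuclei 21.5% ± 4.56. Nuclei of clusters left unnamed held 10.98% ± 7.25, from 1.603% to 21.8% by library, and were 11.3% of all nuclei.

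Oprl1 was low in every class and spread over many. Cholinergic interneuron-like nuclei held 0.169 ± 0.0347, GABAergic interneuron-like nuclei 0.116 ± 0.0279, glutamatergic neuron-like nuclei 0.0985 ± 0.0233 and eccentric MSN-like nuclei 0.0880 ± 0.0235. Oligodendrocyte precursors (0.0617 ± 0.0317) and D1 MSN-like nuclei (0.0510 ± 0.00869) came before D2 MSN-like nuclei (0.0330 ± 0.00672). In this order every class overlapped the next between libraries. On average 31.2% ± 13.1 of the summed Oprl1 value lay in nuclei of clusters left unnamed, from 12.3% to 48.2% by library. Among these, a cluster led by Sim1, Baiap3 and Vip (2553 nuclei) held 0.187 ± 0.00919 and a cluster led by Gpr174, Rxfp2 and Lhx8 (395 nuclei) held 0.245 ± 0.102.

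The D1 and D2 MSN-like classes differed in Oprd1, Oprk1 and Oprl1. The small Oprm1 difference passed in the main fit but not in every alternative. The receptors were kept out of the genes used for clustering, and 12696 genes were tested in limma with the library as a block. Of these genes, 34.4% were called at an adjusted p under 0.05, 26.0% higher in D1 and 8.34% higher in D2, so a call is common among all genes here. The split of 3305 higher in D1 and 1059 higher in D2 turned to 1652 and 2241 when the means were scaled by size factors, while the direction of each receptor stayed as given. The median difference over all genes was 0.07 on the log2 scale.

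Oprd1 marked D2 MSNs. It stood at 0.0110, 0.0215 and 0.0280 in D1 MSN-like nuclei of the wild type libraries and at 0.0247, 0.0258 and 0.0193 in the heterozygous libraries, against 0.616, 0.699 and 0.784 and 0.607, 0.643 and 0.769 in D2 MSN-like nuclei. The classes did not overlap, and the log2 difference of D1 minus D2 was -4.47 ± 0.08 (SE; adjusted p = 3.26e-22, limma), lower in D1 in 6 of 6 libraries. The size depends on the pseudocount, at -2.69 with 0.1 and -4.97 with 0.001. The low Oprd1 values of D1 MSN-like nuclei overlapped the library ranges of oligodendrocyte precursor-like (up to 0.031), endothelial-like (up to 0.036) and mural-like nuclei (up to 0.053).

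Taken over all nuclei of each class, Oprk1 and Oprl1 were higher in D1 MSNs. Oprk1 stood at 0.324, 0.269 and 0.288 (wild type) and 0.339, 0.458 and 0.375 (heterozygous) in D1 MSN-like nuclei, and at 0.171, 0.200 and 0.155 and 0.247, 0.304 and 0.199 in D2 MSN-like nuclei. The log2 difference was 0.67 ± 0.06 (adjusted p = 3.47e-09, limma), with D1 above D2 in 6 of 6 libraries although the class ranges met. Oprl1 differed by 0.51 ± 0.10 (adjusted p = 0.00024, limma), again in 6 of 6 libraries, at levels of 0.0510 and 0.0330. With a pseudocount of 0.1 in place of 0.01 the Oprl1 difference was 0.18, and with 0.001 it was 0.62.

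Oprm1 differed little between the classes as a whole, though the class with more of it changed by cluster, as given below. It was at 0.260, 0.373 and 0.357 (wild type) and 0.253, 0.382 and 0.364 (heterozygous) in D1 MSN-like nuclei and at 0.290, 0.394 and 0.422 and 0.326, 0.498 and 0.315 in D2 MSN-like nuclei. The class ranges overlapped, and D1 was lower in 5 of 6 libraries, by -0.16 ± 0.05 on the log2 scale (adjusted p = 0.0228, limma). The call was lost without wild type replicate 3 (adjusted p = 0.0698), heterozygous replicate 1 (0.0966) or heterozygous replicate 2 (0.122), all in limma. Ipcef1 differed in the same direction by -0.20 ± 0.07 (adjusted p = 0.0253, limma). Of the peptide precursors, Penk stood at 4.68 ± 0.304 in D2 and 0.368 ± 0.0588 in D1 MSN-like nuclei. Pdyn stood at 0.420 ± 0.0551 in D1 and 0.0481 ± 0.0125 in D2. Penk is among the D2 markers and Pdyn among the D1 markers that named these classes. Neither was kept out of clustering, so these differences were in part set by the naming. Pomc and Pnoc were at 0.0125 or below in both classes.

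**Figure D3:**
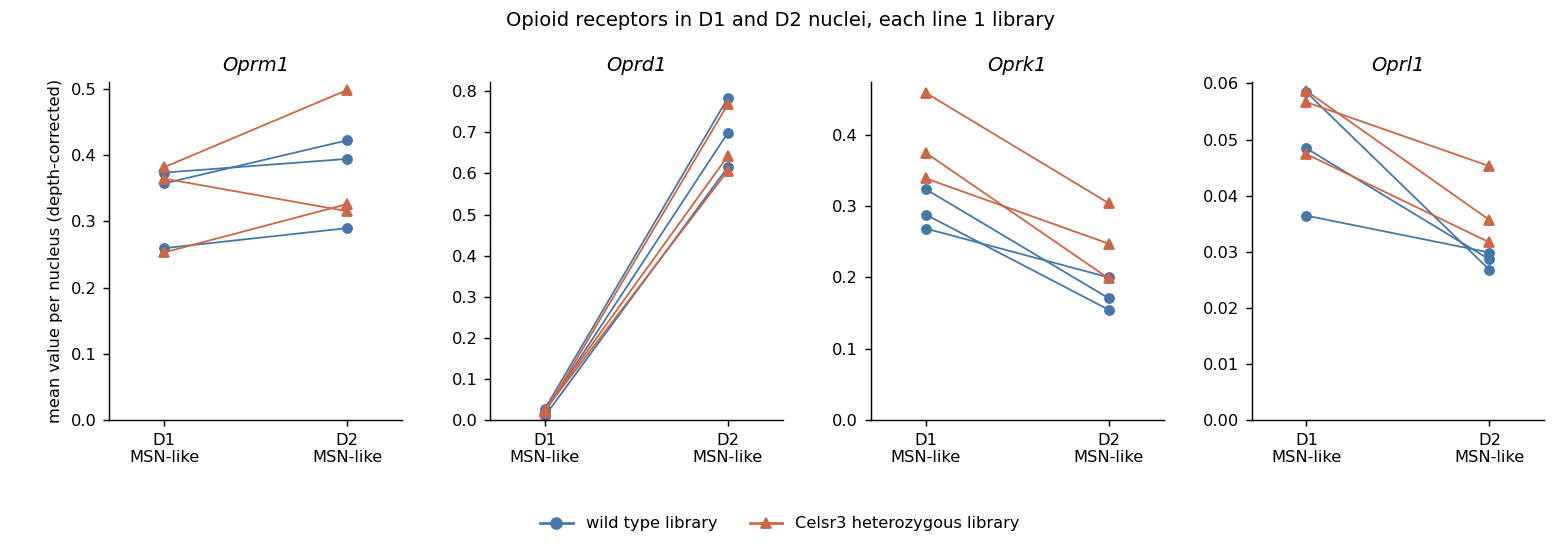
Mean value per nucleus of each receptor in D1 and D2 MSN-like nuclei, 1 line per library and a separate vertical axis for each receptor. Every line rises steeply for Oprd1 and falls for Oprk1 and Oprl1 from D1 to D2, while the Oprm1 lines are shallow and 1 of 6 falls.

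Within each MSN class the receptors varied by cluster, and the clusters were told apart by the lists of regional markers. One D1 cluster (3121 nuclei) and 1 D2 cluster (2063 nuclei) had the highest summed ventral striatal markers of their class, 6.42 ± 1.01 and 6.45 ± 0.943, with Crym at 0.633 and 0.434 and Cnr1 at 0.616 and 0.504. They are called ventral-high here. Most of these 2 sums came from Zbtb20 (4.47 and 5.06), which was also at 4.08 in the D1 cluster called striosome-high below. The largest D1 and D2 clusters (4238 and 3587 nuclei) had the highest summed dorsal markers, 11.6 ± 1.59 and 8.07 ± 0.985, with Cnr1, the cannabinoid receptor gene, at 3.75 and 3.55, and are called dorsal-high. Most of these sums came from Reln (4.61 and 2.71), Cnr1 and Gpr155 (2.02 and 1.19), and the list did not move as one. Crhr1 was lowest in the dorsal-high clusters, at 0.027 and 0.028 against 0.114 and 0.277 in the clusters called striosome-high below. Wnt2 was lower there than in the ventral-high clusters, at 0.099 against 0.154 in D1 and 0.078 against 0.152 in D2, and Reln in D1 was as high in the striosome-high cluster (4.64). The third of each class (1140 and 1465 nuclei) had the highest summed striosome markers without Oprm1, 11.5 ± 1.24 and 8.47 ± 0.703, and is called striosome-high. Of that list, Pdyn was higher in the ventral-high clusters, at 0.669 against 0.595 in D1 and 0.0601 against 0.0435 in D2. Every other gene of the list was highest in the striosome-high cluster of each class. Differences between clusters are given as a description, with no test.

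In D1 MSNs, Oprm1 was at 1.00 ± 0.217 in the striosome-high cluster, 0.348 ± 0.118 in the ventral-high cluster and 0.148 ± 0.0217 in the dorsal-high cluster. The striosome-high libraries (1.13, 1.02 and 1.05 in wild type, 0.570, 1.08 and 1.16 in heterozygous) all lay above those of the other D1 clusters. In D2 MSNs the order was another: the ventral-high cluster held 0.7496 ± 0.189, the striosome-high cluster 0.352 ± 0.0861 and the dorsal-high cluster 0.169 ± 0.0514. The lowest ventral-high D2 library (0.503) stood above the highest striosome-high D2 library (0.493). Ipcef1 followed the same order, at 0.211, 0.0994 and 0.0527 in the striosome-, ventral- and dorsal-high D1 clusters and at 0.187, 0.0850 and 0.0660 in the ventral-, striosome- and dorsal-high D2 clusters.

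Oprd1 was at 0.784 ± 0.0971 in the dorsal-high, 0.614 ± 0.0735 in the ventral-high and 0.550 ± 0.0320 in the striosome-high D2 cluster, and at 0.0355 or below in every D1 cluster. Oprk1 was highest in the ventral-high D1 cluster (0.452 ± 0.101) and lowest in the dorsal-high D2 cluster (0.151 ± 0.0404). In D2 MSNs it was highest in the striosome-high cluster, at 0.327 ± 0.0505. Oprl1 was lowest in the dorsal-high cluster of each class, at 0.0383 ± 0.00679 in D1 and 0.0223 ± 0.00239 in D2.

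**Figure D4:**
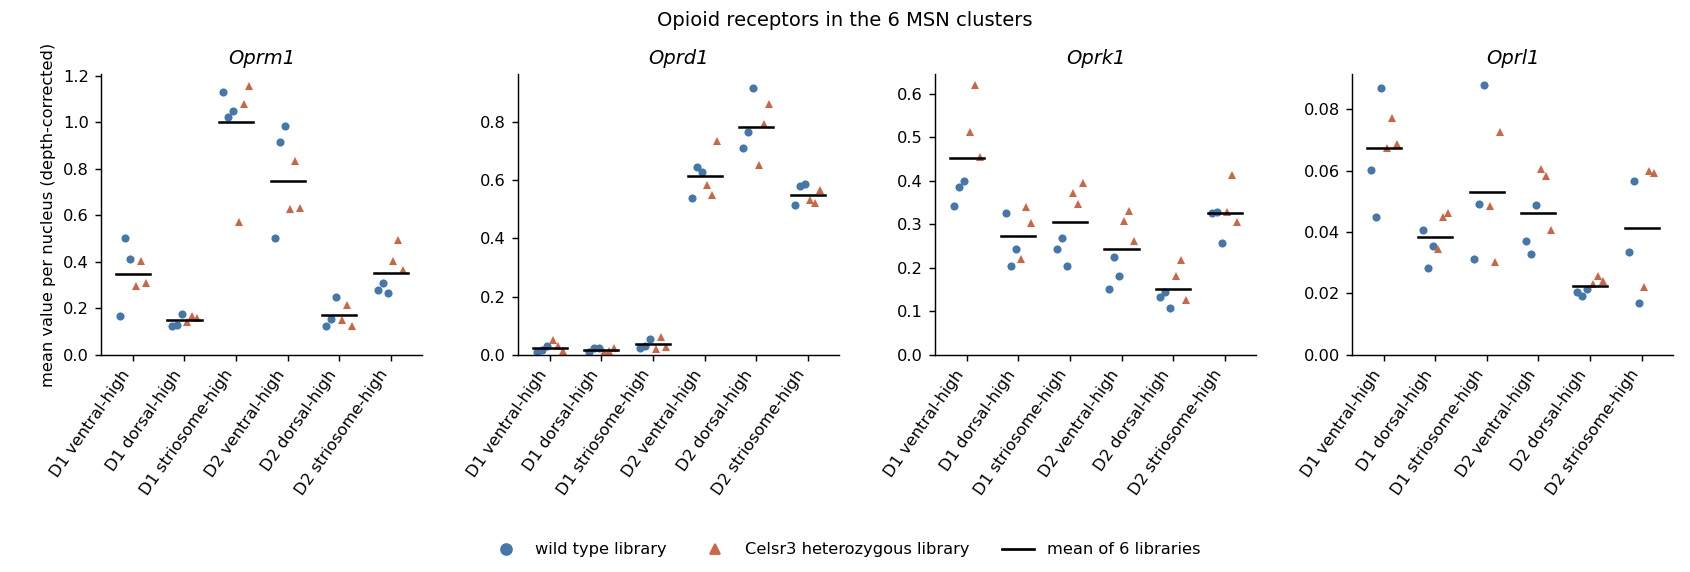
Mean value per nucleus of each receptor in the 6 MSN clusters, 1 point per library and a bar at the mean of 6 libraries, with a separate vertical axis for each receptor. Oprm1 is highest in the D1 striosome-high (1.00) and D2 ventral-high (0.7496) clusters, and Oprd1 is near the axis in all D1 clusters.

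The nuclei of each class were also ranked by a striosome score that left Oprm1 out. It used the striosome list that named the striosome-high clusters, minus the matrix markers, so it is not independent of those clusters. In the highest 10% of D1 nuclei, Oprm1 stood at 1.06, 1.12 and 1.09 in the wild type and at 0.513, 1.25 and 1.25 in the heterozygous libraries, against 0.170 to 0.290 in the remaining D1 nuclei. This 10% was higher in 6 of 6 libraries, with means of 1.05 ± 0.273 and 0.252 ± 0.0467 (exact sign-flip permutation test over 6 libraries, two-sided, p = 0.03125, the smallest this design can give; adjusted over 8 comparisons 0.0833). Of those nuclei, 78.1% lay in the striosome-high D1 cluster, so most of them are nuclei already described by cluster. In D2 MSNs, Oprm1 was at 0.357 ± 0.0956 in the highest 10% and 0.376 ± 0.0816 in the rest, a difference within the spread, and it was above the rest by 0.0550 when the highest 20% were taken. Oprd1 was lower in the highest 10% of D2 nuclei in 6 of 6 libraries, at 0.431 ± 0.0603 against 0.715 ± 0.0849, and Oprk1 was higher in 6 of 6, at 0.321 ± 0.0457 against 0.201 ± 0.0573, each with the same exact permutation p = 0.03125 and adjusted p = 0.0833. None of the 8 comparisons passed an adjusted p of 0.05. The score holds Tac1 and Pdyn, which are also markers of the D1 class. As means over D2 nuclei, they stood at 0.711 and 0.108 in the highest 10% and at 0.267 and 0.0436 in the rest. Whether D1-like signal enters the D2 differences was not tested. Oprk1 in D1 MSNs was lower in the highest 10% in 5 of 6 libraries but higher in the highest 20% in 4 of 6. In the highest 10%, mean Oprk1 was not above D2 in D1, at 0.285 ± 0.0727 in D1 and 0.321 ± 0.0457 in D2. Oprl1 stood there at 0.0545 ± 0.00895 in D1 and 0.0509 ± 0.0219 in D2. D1 against D2 was not tested within these nuclei.

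Celsr3 levels were lower in every heterozygous library in both MSN classes. In D1 MSN-like nuclei it stood at 0.147, 0.169 and 0.179 in wild type and at 0.0795, 0.1008 and 0.1004 in heterozygous libraries, a log2 difference of -0.76 ± 0.13. In D2 MSN-like nuclei the difference was -0.64 ± 0.16. The groups did not overlap in either class, and the share of all genes that did so in this direction is not given here. The adjusted p was 0.134 and 0.278 (limma), so Celsr3 itself did not pass. With array weights it passed in both classes (-0.78, adjusted p = 0.0128, and -0.63, adjusted p = 0.0488, limma), and without wild type replicate 1 it passed in D1 (-0.83, adjusted p = 0.0241, limma). Among all genes, 0.0223% of the 13435 tested in the D1 class and 0.00784% of the 12748 tested in the D2 class were called. Celsr3 differed by -0.82 ± 0.14 in glutamatergic neuron-like nuclei (adjusted p = 0.619, limma). In GABAergic interneuron-like nuclei it differed by -0.03 ± 0.25 (adjusted p = 0.997, limma), with the groups overlapping.

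None of the 4 receptors passed the genotype test in all nuclei, in D1 or D2 MSN-like nuclei or in any other class, over 24 tests in limma; 4 of the 24 had an unadjusted p under 0.05. These were Oprk1 in all nuclei, D1 and D2 MSN-like nuclei, where 9.91%, 9.88% and 8.66% of all genes tested had such a p. The other was Oprm1 in astrocyte-like nuclei, where 6.21% did. Its place in that test rested on the heterozygous libraries, as given below. At the adjusted threshold, 0.0% of genes were called in all nuclei and in each other class with a receptor tested, except glutamatergic neuron-like nuclei at 0.00797%. Of the 4 receptors, Oprk1 had the smallest p in both MSN classes. In D1 MSN-like nuclei the heterozygous libraries (0.339, 0.458 and 0.375) all lay above the wild type libraries (0.324, 0.269 and 0.288), with a log2 difference of 0.39 ± 0.12 (95% interval 0.11 to 0.67; unadjusted p = 0.0113, adjusted p = 0.378, limma). Groups that did not overlap in the same direction were seen for 11.4% of the genes tested there. The highest library, heterozygous replicate 2, weighed on the value: without it the difference was 0.28. With limma array weights, Oprk1 in D1 MSN-like nuclei passed at 0.53 (adjusted p = 0.0360), a fit in which 493 genes were called.

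In D2 MSN-like nuclei, Oprk1 differed by 0.48 ± 0.16 (95% interval 0.12 to 0.83; adjusted p = 0.420, limma). The groups met there, with the highest wild type library at 0.200 and the lowest heterozygous library at 0.199. The genotype fits within MSN clusters, here and below, were not planned and were added after the data were seen. The log2 differences of Oprk1 by cluster were 0.47 in the ventral-high, 0.16 in the dorsal-high and 0.63 in the striosome-high D1 cluster, and 0.67, 0.39 and 0.19 in the same order in D2 MSNs. Of these, 3 moved by over 1.5 times with 1 library left out. The dorsal-high D1 value was 0.0058 without wild type replicate 2, 0.030 without heterozygous replicate 2, and 0.33 without wild type replicate 1 or heterozygous replicate 1. The dorsal-high D2 value was 0.22 without heterozygous replicate 2 and 0.597 without heterozygous replicate 3. The striosome-high D2 value was 0.064 without heterozygous replicate 2 and 0.077 without wild type replicate 3. None was called in limma (lowest adjusted p = 0.185, in the ventral-high D2 cluster). Over all genes tested, 0.0182%, 0.0345% and 0.0872% were called in the ventral-, dorsal- and striosome-high D1 clusters and 0.0106%, 0.00928% and 0.0128% in those of D2. For Oprk1 the genotypes did not overlap, with the heterozygous group higher, in the ventral-high D1, striosome-high D1 and ventral-high D2 clusters, as for 12%, 8.6% and 10.7% of the genes tested there. The difference of the Oprk1 genotype effect between D1 and D2 MSN-like nuclei was -0.08 ± 0.12 (adjusted p = 0.980, limma interaction, where 0.0315% of 12696 genes were called).

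The summed value of 12 ventral striatal markers was also higher in the heterozygous libraries, though 0 of these markers were called by genotype. It was 3.89 ± 0.122 (SD, n = 3) in wild type D1 MSN-like nuclei and 4.68, 5.45 and 4.87 in the heterozygous libraries. In D2 MSN-like nuclei it was 3.73 ± 0.0543 and 4.49, 5.16 and 4.52, and the groups overlapped in neither class. Among single genes tested, 11.4% in D1 and 8.96% in D2 had no overlap in that direction. Most of the ventral sum was Zbtb20, a transcription factor gene, at 3.02 and 3.83 in D1 and 3.09 and 3.94 in D2 MSN-like nuclei (means of wild type and heterozygous). Of the 9 ventral markers that passed the filter in the D1 class, 8 were higher in heterozygous libraries and 0 were called, with a median log2 difference of 0.34 beside 0.06 over all genes tested. Of all genes tested in D1, 8739 of 13435 were higher. In D2, 6 of 7 ventral markers were higher and 0 were called (median 0.35 beside 0.04), and 7678 of 12748 genes were higher. Drd3, the dopamine D3 receptor gene, stood at 0.1004 ± 0.0229 and 0.193 ± 0.0368 in D1 MSN-like nuclei. The ventral-high cluster made up 30.8% to 45.6% of D1 MSN-like nuclei in wild type and 33.7% to 42.4% in heterozygous libraries. When each cluster had equal weight, the Oprk1 difference was 0.43 in D1 and 0.39 in D2 MSN-like nuclei, beside pooled values of 0.39 and 0.48. With nuclei matched on genes per nucleus it was 0.32 and 0.38. The part of the ventral markers or of the cluster make-up in the Oprk1 difference was not tested.

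**Figure D5:**
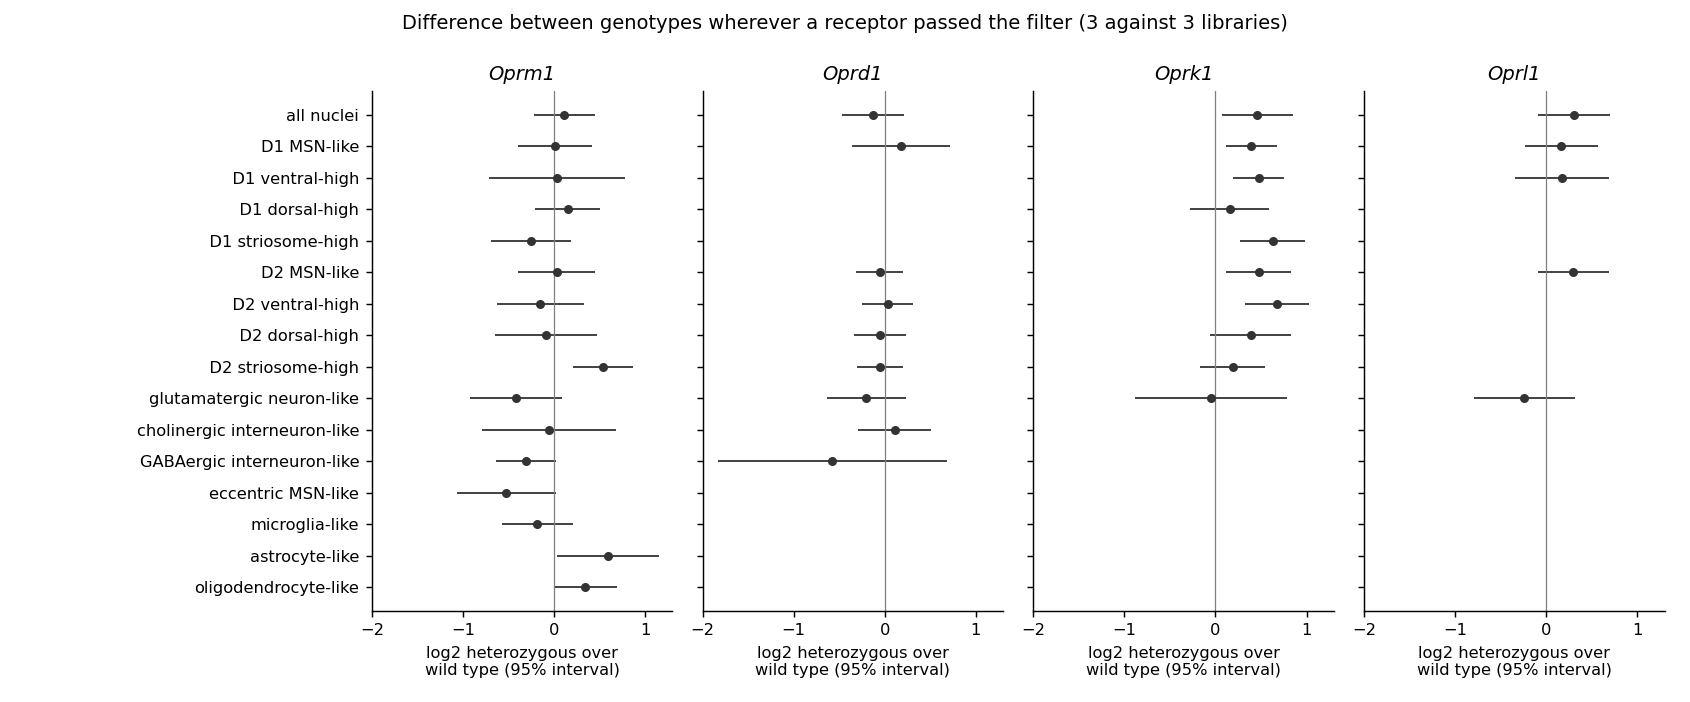
Log2 difference of heterozygous over wild type for each receptor in every population where it passed the filter on low values, with its 95% interval from limma (3 against 3 libraries). Oprk1 lies above 0 in D1 (0.39) and D2 (0.48) MSN-like nuclei, Oprm1 in D1 (0.01) and D2 (0.03) MSN-like nuclei lies at 0, and no value passed the adjusted threshold.

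The other receptors showed no genotype difference that passed the test. Oprm1 differed by 0.01 ± 0.18 in D1 (95% interval -0.40 to 0.41) and 0.03 ± 0.19 in D2 MSN-like nuclei (-0.39 to 0.45), and its sign changed with the setting in both. Within clusters, Oprm1 differed by 0.03 in the ventral-high, 0.15 in the dorsal-high and -0.25 in the striosome-high D1 cluster, and by -0.15, -0.09 and 0.53 in the same order in D2. The D1 striosome-high difference was -0.25 ± 0.21 (adjusted p = 0.814, limma) and ran from -0.44 to 0.066 with 1 library left out. Ipcef1 in that cluster differed by -0.73 ± 0.30 (adjusted p = 0.620, limma). The dorsal-high D1 difference of Oprm1 ran from 0.064 to 0.31 with 1 library left out, and differences between clusters were not tested. In the striosome-high D2 cluster (0.53 ± 0.15), the heterozygous libraries (0.401, 0.493 and 0.364) lay above the wild type libraries (0.280, 0.309 and 0.266; adjusted p = 0.403, limma). Groups did not overlap in that direction for 7.59% of the genes tested in that cluster. Oprd1 in D2 MSN-like nuclei differed by -0.06 ± 0.12 (95% interval -0.31 to 0.20). Oprl1 differed by 0.17 ± 0.18 in D1 and 0.30 ± 0.17 in D2 MSN-like nuclei; in D2 the groups did not overlap (0.0268 to 0.0299 against 0.0317 to 0.0453), as for 8.96% of the genes tested in this direction. Leaving out 1 library at a time, the Oprl1 difference ran from 0.019 (without wild type replicate 2) to 0.30 (without wild type replicate 3) in D1, and was 0.18 without heterozygous replicate 2 in D2. Over all alternatives run, the Oprl1 difference in D2 ran from 0.098 to 0.41. Ipcef1 differed by -0.35 ± 0.19 in D1 and -0.12 ± 0.15 in D2 MSN-like nuclei (adjusted p = 0.572 and 0.870, limma). The interaction of genotype and MSN class gave an adjusted p of 0.939 or more for each receptor (limma).

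Outside the D1 and D2 MSN classes, 12 tests in 7 classes were possible, and all 4 receptors passed the filter only in glutamatergic neuron-like nuclei. There Oprm1 stood at 3.05, 2.30 and 2.01 in wild type and at 1.58, 1.52 and 2.48 in heterozygous libraries, which overlap (-0.41 ± 0.22; adjusted p = 0.935, limma). The difference was -0.25 without wild type replicate 1 and -0.64 without heterozygous replicate 3. Over all alternatives run, it ran from -0.64 to -0.11.

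The glutamatergic cluster with the most Oprm1, fitted on its own after its values were seen, stood at 5.00, 4.67 and 4.98 in wild type and at 3.55, 3.34 and 3.71 in heterozygous libraries. The groups did not overlap, and Oprm1 differed by -0.47 ± 0.11 (unadjusted p = 0.0017, adjusted p = 0.677, limma), which did not pass. Groups did not overlap in that direction for 5.17% of the 7792 genes tested in this cluster, and 0 genes were called. With 1 library left out, the difference ran from -0.50 to -0.43, but on the share of detected nuclei it was -0.029, in a cluster where nearly all nuclei were detected. Ipcef1 in the same nuclei differed by -0.05 ± 0.14. The other glutamatergic cluster with enough nuclei in every library differed in Oprm1 by -0.30 ± 0.25 (adjusted p = 0.922, limma), and ran from -0.57 (wild type replicate 2 left out) to -0.056 (wild type replicate 1 left out). It was -0.20 without heterozygous replicate 1.

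Eccentric MSN-like nuclei differed in Oprm1 by -0.52 ± 0.24 (adjusted p = 0.945, limma), with wild type replicate 1 at 2.51 and the other 5 libraries at 0.927 to 1.78. Without that library the difference was -0.27, and without wild type replicate 2 it was -0.78. Microglia-like nuclei differed by -0.18 ± 0.18 (adjusted p = 0.944, limma), at -0.038 without wild type replicate 2 or without heterozygous replicate 1 and -0.37 without wild type replicate 3. Oprm1 was higher in heterozygous libraries in astrocyte-like (0.59 ± 0.25) and oligodendrocyte-like nuclei (0.34 ± 0.16) without overlap, at means below 0.05 per nucleus and adjusted p = 0.759 and 0.942 (limma). Non-overlap in that direction was seen for 7.16% and 6.22% of the genes tested in these classes. In astrocyte-like nuclei the difference was 0.32 without wild type replicate 2, and with a pseudocount of 0.1 the 2 differences were 0.18 and 0.12. Oprm1 in astrocyte-like nuclei, at 0.0355 ± 0.0121, stood near the filter on low values. It did not pass that filter without heterozygous replicate 2 or without heterozygous replicate 3. Its entry to the test thus rested on libraries where it was high. In GABAergic interneuron-like nuclei, Oprm1 differed by -0.31 ± 0.15 (adjusted p = 0.843, limma), or -0.20 without heterozygous replicate 1. Oprd1 differed there by -0.58 ± 0.57 (adjusted p = 0.954, limma), with the sign changed without heterozygous replicate 2 (0.28). Ipcef1 in the same nuclei differed by -0.55 ± 0.22 (adjusted p = 0.765, limma). In cholinergic interneuron-like nuclei, Oprd1 differed by 0.11 ± 0.17 and Oprm1 by -0.06 ± 0.32, from 30 to 44 nuclei per library. Over all nuclei, where class make-up enters, Oprk1 differed by 0.46 ± 0.16 (adjusted p = 0.468, limma), and by 0.29 to 0.63 over the alternatives run. In all nuclei, 1428 of 14403 genes had an unadjusted p under 0.05 and 0 were called in limma.

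No other gene of the receptors' pathway passed the genotype test. In D1 and in D2 MSN-like nuclei, 0 members were called in each list below by limma. Of the 11 receptor G protein genes tested in D1 MSN-like nuclei, 10 were higher in heterozygous libraries (median log2 difference 0.13), with Gnai1, an inhibitory alpha subunit, at 0.288 ± 0.0358 and 0.350 ± 0.0157 (adjusted p = 0.443) and Gnaz at 0.18 ± 0.09 on the log2 scale. In D2 MSN-like nuclei 7 of 11 were higher, with Gnai1 at 0.26 ± 0.14 and Gnaz at 0.17 ± 0.10. Of the 11 effector genes tested, 10 were higher in each class, with medians of 0.14 in D1 and 0.12 in D2; Cacna1b, the pore of the N-type calcium channel, differed by 0.21 ± 0.08 in D1 and Adcy5, the main striatal adenylyl cyclase, by 0.18 ± 0.06 in D2 MSN-like nuclei. Adcy9, another adenylyl cyclase, differed by 0.24 ± 0.09 in D1 and 0.19 ± 0.08 in D2. All genes tested had medians of 0.06 and 0.04, and 8739 of 13435 genes in D1 and 7678 of 12748 in D2 were higher in heterozygous libraries.

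Receptor kinases and arrestins were lower in heterozygous libraries in 4 of 6 genes in D1 (median -0.08) and 5 of 6 in D2 MSN-like nuclei (median -0.10). Among them, Arrb2, which takes up activated receptors, differed by -0.22 ± 0.14 in D1, whereas Arrb1, the other of these arrestins, differed by 0.13 ± 0.09. In D2, the kinase genes Grk6 and Grk5 differed by -0.15 ± 0.14 and -0.15 ± 0.15. The regulators of G protein signalling had medians of 0.00 and 0.01 over 11 genes tested in each class. Rgs20 had the smallest p of that list in both, at -0.39 ± 0.20 and -0.30 ± 0.21. Rgs9 followed in D1 at 0.07 ± 0.06 and Rgs10 in D2 at 0.21 ± 0.15. Among enzymes that make or break down opioid peptides (8 tested in each class), Pcsk2, a prohormone convertase, differed by 0.16 ± 0.06 in D2 (6.15 ± 0.214 against 6.89 ± 0.193) and Pcsk1 by -0.57 ± 0.26 in D1. Ece1 differed by -0.36 ± 0.17 in D1 and Mme, the enkephalin-cleaving enzyme neprilysin, by 0.16 ± 0.08 in D2. Of the receptor partners, Wls differed by 0.26 ± 0.15 in D1 and -0.11 ± 0.21 in D2, and Gpm6a by 0.08 ± 0.07 and 0.07 ± 0.07. Penk differed by -0.07 ± 0.15 in D1 and -0.11 ± 0.07 in D2, and Pdyn by 0.06 ± 0.14 and 0.06 ± 0.22; Pomc and Pnoc did not pass the filter in either class.

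Detection of several receptors in the same nucleus was mostly near what their shares would give. At least 1 of the 4 was detected in 45.2% ± 4.46 of D1 and 68.8% ± 3.28 of D2 MSN-like nuclei, and 2 or more in 8.79% ± 2.02 and 20.7% ± 3.56. Oprm1 and Oprd1 were detected together in 10.5% of D2 MSN-like nuclei, slightly under the 11.2% of independent detection, and in 0 of 6 libraries above it. In cholinergic interneuron-like nuclei they were detected together in 48.3% (106 nuclei) against 45.1%, above independence in 5 of 6 libraries. Oprk1 and Oprl1 were together in 1.87% of D1 MSN-like nuclei, 1.39 times the product of their shares and above it in 6 of 6 libraries. In D2 MSN-like nuclei this pair was at 1.31 times, and Oprd1 with Oprk1 in D1 at 1.23 times, each above it in 5 of 6. Oprd1 with Oprk1 in glutamatergic neuron-like (1.42) and Oprd1 with Oprl1 in GABAergic interneuron-like nuclei (1.49) were also above it in 5 of 6. Oprm1 with Oprd1 in GABAergic interneuron-like nuclei was at 0.74, above it in 1 of 6. Shares of detected nuclei depend on the unknown depth of each nucleus.

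Over the 14 class means, the genes whose levels were most like those of each receptor were taken from 14403 genes by Pearson's r, as a description of classes that share libraries. They were Rogdi (0.949), Ipcef1 (0.946) and Alg2 (0.936) for Oprm1, Htr7 (0.932), Slc6a15 (0.912) and Gm42875 (0.905) for Oprd1, 9330154J02Rik (0.983), Gm10855 (0.978) and Slc8a2 (0.977) for Oprk1, and Gm20641 (0.961), Gm26756 (0.956) and Ercc2 (0.950) for Oprl1. Among the receptors, r ran from 0.473 (Oprk1 and Oprl1) to 0.784 (Oprm1 and Oprl1).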

How the data were processed

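Single-nucleus libraries (10x Genomics 3′ v3.1 chemistry, all 6 sequenced on 1 lane, per the labels' protocols) were made from striatum of 3 wild type and 3 Celsr3 heterozygous replicates, labelled as biological replicates; the labels do not say whether each is 1 mouse, so p-values measure the spread between these libraries. The submitters' processing notes name Cell Ranger and Seurat 4.1 and the builds mm10 and GRCm38. The deposited values are treated as a score: whole numbers that behave as depth-corrected molecule counts, since totals per nucleus vary by 10.7% only (4523 to 10638), from 1284 to 5263 genes per nucleus. This was read from the values, the original depth is unknown, and no counting interval was computed; the count test planned for raw counts was therefore not used. The median total per nucleus was 6413 to 6990 between libraries, and the number of columns that could not be mapped to a library was 0.

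Nuclei were clustered with scanpy 1.11.5 (2000 variable genes without the 4 receptors, 30 components, 15 neighbours, Leiden resolution 1.0). Only Oprm1 would otherwise have been among the variable genes. Of 42 clusters, 4 were left out as doublets and 6 stayed unnamed (5528 nuclei). Scrublet's own calls marked 0.317% to 0.824% of a library, so 772 nuclei were dropped by a fixed rule: a doublet score above 0.25, or membership of a cluster in which such scores exceeded 40%. A cluster was called X-like where at least 3 markers of 1 class were over 2-fold above other nuclei with a mean above 0.1, covering 50% of its list or with 1 among its top 10 genes, and no other class matched as well; these limits were set after the clusters were seen. The classes tested had at least 20 nuclei in every library.

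Means per library and class were compared as log2(mean + 0.01) with limma 3.58.1 (trended empirical Bayes, two-sided, R 4.3.3), for genes with a mean of at least 0.02 and a summed value averaging at least 30 per library. This scale understates the change of low genes. Benjamini-Hochberg adjustment ran within each population, with 0.05 as the threshold for a call. D1 against D2 and its interaction with genotype had the library as a block. On simulated data for 13435 genes, the D1 genotype fit recovered 98% of 100 genes changed by 1 on the log2 scale. The simulation gave every gene the same spread between libraries, with no shift shared by genes, and held only changes of 1 and 2. It does not tell how often smaller differences, such as those of the receptors, would be called in these libraries. The striosome comparison used an exact sign-flip permutation test over 6 libraries. The receptors, Celsr3, the peptide precursors and, from each pathway list, called genes or else the 2 of smallest p in D1 and in D2 are named; Ipcef1, regional markers and cluster-leading genes were added after values were seen. Members and lists were chosen with earlier results of these data known.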

Additional observations from a re-analysis of the deposited data

How the results depend on the processing

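By genotype, the count of receptors called changed under 1 of the alternatives run: with array weights, 1 receptor (Oprk1, 0.53, adjusted p = 0.0360, limma) was called by genotype in D1 MSN-like nuclei, in a fit that called 493 genes against 3. Leaving out wild type replicate 1 raised the genes called to 206 in D1 and 126 in D2 MSN-like nuclei, with 0 receptors among them. The directions of Oprd1, Oprk1 and Oprl1 between D1 and D2 held in every alternative; Oprm1 lost its call without a filter on low values (adjusted p = 0.105, limma), on the share of detected nuclei (0.101) and without 3 of the 6 libraries, so that 3 or 4 receptors were called. The labels do not say that replicate numbers pair the libraries. As deviations from the mean of their own genotype, same-numbered wild type and heterozygous libraries had correlations of 0.27, 0.015 and 0.19 in D1 MSN-like nuclei. In D2 MSN-like nuclei these correlations were 0.25, 0.030 and 0.19. These were -0.039, 0.14 and -0.069 in all nuclei. In D1, wild type replicate 2 with heterozygous replicate 3 reached 0.21. With the replicate block 0 receptors were called in all nuclei, D1, D2 or other classes, while genes called in D2 MSN-like nuclei went from 1 to 5.

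Small log2 genotype differences changed sign, and the cause was not tested. With array weights, these were Oprd1 in D1 MSN-like nuclei (-0.016) and in the ventral-high D2 cluster (-0.036) and the Oprm1-high (-0.025) and other glutamatergic cluster (-0.17), Oprk1 in glutamatergic neuron-like nuclei (0.13), and Oprm1 in the ventral-high D1 cluster (-0.16) and in all nuclei (-0.040). With size-factor scaling, they were Oprd1 in the ventral-high D2 (-0.0089) and Oprm1-high glutamatergic cluster (-0.050) and Oprm1 in D1 (-0.046), the ventral-high D1 cluster (-0.026) and D2 (-0.0046). With equal cluster weights or matched genes per nucleus, Oprm1 was at -0.16 and -0.078 in D1 and at -0.15 and -0.17 in all nuclei, and at -0.042 in D2 when matched. On the share of detected nuclei, Oprd1 and Oprm1 in the other glutamatergic cluster were at -0.079 and 0.00029, Oprd1 in cholinergic interneuron-like nuclei was at -0.0030 and Oprm1 in the dorsal-high D2 cluster at 0.0031; with a pseudocount of 0.1, Oprm1 in the ventral-high D1 cluster was at -0.00087. By striosome score, the highest 20% gave 0.029 for Oprk1 in D1 and 0.055 for Oprm1 in D2.

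Leaving out 1 library at a time, the sign also changed for these ranges. The D1 minus D2 genotype effect ran from -0.24 to 0.015 for Oprk1, -0.31 to 0.032 for Oprl1 and -0.21 to 0.080 for Oprm1, and the D2 striosome difference of Oprm1 from -0.043 to 0.0072. Oprd1 ran from -0.19 to 0.13 in the Oprm1-high and -0.13 to 0.25 in the other glutamatergic cluster, -0.062 to 0.37 in D1, -0.15 to 0.028 in D2, -0.14 to 0.060 in the dorsal-high and -0.092 to 0.12 in the ventral-high D2 cluster, -1.10 to 0.28 in GABAergic and -0.041 to 0.21 in cholinergic interneuron-like nuclei. Oprk1 ran from -0.41 to 0.40 in glutamatergic neuron-like nuclei and Oprl1 from -0.026 to 0.39 in the ventral-high D1 cluster. Oprm1 ran from -0.15 to 0.19 in D1, -0.44 to 0.066 in the striosome-high and -0.44 to 0.34 in the ventral-high D1 cluster, -0.18 to 0.14 in D2, -0.30 to 0.18 in the dorsal-high and -0.45 to 0.028 in the ventral-high D2 cluster, -0.044 to 0.21 in all nuclei and -0.39 to 0.18 in cholinergic interneuron-like nuclei. Since the original depth is unknown, no counting error could be given for low levels. Filters, size factors, array weights and the block were not run for the striosome comparison, which is a difference within each library.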
